A study of Mus musculus with 17 samples.

Results

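The 10 genes studied here encode core regulators of pluripotency, and their transcripts were followed through cultured mouse stem cells. They are Pou5f1, Sox2, Nanog, Sall4, Utf1, Zfp42, Esrrb, Tfcp2l1, Prdm14 and Tbx3. They were chosen by name, for their known role in pluripotency, and all 10 of 10 were found among the 23891 gene symbols of the tables. Of the 32661 RefSeq transcripts listed, 18 belong to these genes, and each gene is given by the transcript with the highest mean FPKM (a read count corrected for transcript length and for the size of the library) over the 17 samples.

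The study asked how spermatogonial stem and progenitor cells (SSCs), which make only sperm in the testis, turn into multipotent adult spermatogonial-derived stem cells (MASCs) during long culture. SSC lines came from the testes of adult mice, and 4 were sequenced: SSC.1 and SSC.2 of the Oct4-GFP strain, SSC.3 of C57Bl/6J and SSC.4 of 129mix. MASC lines were picked as colonies that looked like embryonic stem cells, and 6 were sequenced: MASC.1 and MASC.2 of Oct4-GFP, MASC.3 and MASC.4 of 129mix, and MASC.5 and MASC.6 of Gt(ROSA26)Sor-lacZ. For comparison there were 2 embryonic stem cell (ESC) lines (ESC.1 of Oct4-GFP, ESC.2 of 129mix), 2 induced pluripotent stem (iPS) cell lines of 129mix, 2 C57Bl/6J haematopoietic stem and progenitor cell (HSC) cultures and 1 sample of 129mix mouse embryonic fibroblasts (MEF). The number after each name is the replicate number of the label, and p-values measure the spread between these lines.

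Several features of these lines bear on the genes studied. In the Oct4-GFP strain, a green fluorescent protein gene is driven by Pou5f1 (Oct4) regulatory sequence. The iPS cells were made from tetO-4F2A fibroblasts, in which doxycycline switches on a cassette of Oct4, Sox2, Klf4 and c-Myc, so that for Pou5f1 and Sox2 transcripts of the cassette and of the endogenous gene cannot be told apart in these values. SSCs, MASCs, ESCs and iPS cells grew on MEF feeder cells, MASCs, ESCs and iPS cells with leukaemia inhibitory factor, and HSCs on human endothelial feeder cells. No source used here says which SSC line gave rise to which MASC line.

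Pluripotent cells can form all tissues of the embryo, and a small network of transcription factors holds them in that state. Pou5f1 and Sox2 bind side by side to composite DNA sites, switch on each other and Nanog, and keep differentiation genes off. A second layer (Esrrb, Tfcp2l1, Tbx3, Prdm14, Zfp42) marks the naive state of cultured mouse cells, and Sall4 and Utf1 are shared with germ cells of the testis, where they are found in undifferentiated spermatogonia.

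The composite Oct4 and Sox2 site is easiest to see in front of Nanog. RefSeq promoter windows (GRCm38.p6, from 250 bases before to 50 after a start site) were listed for 7 of the 10 genes, in 10 windows, and not for Sall4, Prdm14 and Tbx3. They were searched on both strands for an octamer core (ATGCAAA), a Sox core (ACAATG) and an Esrrb-type core (AAGGTCA). The 250 bases before the start are shown for the 3 genes with an octamer core, with the cores in capitals. They are also shown for the second start site of Pou5f1, whose transcript was assigned a share of FPKM that differed between lines.
Nanog, chr6:122707239-122707488, plus strand: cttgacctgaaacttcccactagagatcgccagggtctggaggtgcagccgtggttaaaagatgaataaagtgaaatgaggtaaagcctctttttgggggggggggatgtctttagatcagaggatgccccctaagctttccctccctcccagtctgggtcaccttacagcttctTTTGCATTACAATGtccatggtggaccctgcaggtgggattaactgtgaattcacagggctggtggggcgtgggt
Sox2, chr3:34649745-34649994, plus strand: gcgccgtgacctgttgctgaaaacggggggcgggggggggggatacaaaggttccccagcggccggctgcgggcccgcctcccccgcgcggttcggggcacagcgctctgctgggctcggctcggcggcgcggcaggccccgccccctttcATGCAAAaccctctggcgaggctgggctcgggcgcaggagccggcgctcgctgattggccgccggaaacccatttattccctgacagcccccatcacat
Zfp42, chr8:43307010-43307259, minus strand: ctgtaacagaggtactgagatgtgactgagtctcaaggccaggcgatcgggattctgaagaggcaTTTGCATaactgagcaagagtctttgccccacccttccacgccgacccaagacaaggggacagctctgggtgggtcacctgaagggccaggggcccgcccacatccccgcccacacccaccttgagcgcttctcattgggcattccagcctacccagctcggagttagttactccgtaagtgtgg
Pou5f1, second start, chr17:35508557-35508806, plus strand: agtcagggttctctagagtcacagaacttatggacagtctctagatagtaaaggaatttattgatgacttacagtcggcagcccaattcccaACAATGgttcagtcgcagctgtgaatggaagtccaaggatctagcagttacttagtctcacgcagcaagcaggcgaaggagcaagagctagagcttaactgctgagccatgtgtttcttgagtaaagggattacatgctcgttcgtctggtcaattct
In front of Nanog, the octamer core (on the minus strand) and the Sox core lie 1 base apart, from 75 to 62 bases before the upstream start site and from 151 to 138 bases before the main one. Octamer and Sox cores at most 3 bases apart occurred in 6 of 32851 promoter windows of the mouse table (0.0183%), including both Nanog windows. An octamer core alone occurred in 4.63% of all windows, a Sox core in 12.6% and an Esrrb-type core in 4.72%. The octamer cores of Sox2 and Zfp42 lie from 99 to 93 and from 185 to 179 bases before their starts. The window of the second Pou5f1 start holds a Sox core, the window of the upstream Esrrb start holds one from 32 to 37 bases after the start, and the other windows of these genes hold none of the 3 cores. A match describes the letters of the window and not binding.

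The files give FPKM but no read counts, and Cufflinks read coverage at 1 FPKM was between 1.26 and 3.23 reads per base, so values well below 1 FPKM rest on few reads. The number of transcripts that reached 1 FPKM lay between 13532 and 16272. Summed FPKM of 17 spermatogonial markers was 972 to 1158 in SSC lines and 144 to 188 in MASC lines. This sum was also 176 to 193 in ESC lines and 311 to 432 in HSC samples, where Kit alone was at 401 and 286. Of the same markers, Etv5 was at 81.1 to 128 FPKM in MASC lines and 11.4 to 123 in SSC lines. The sum of 8 haematopoietic markers was 702 to 909 in HSC samples and 84.2 or less elsewhere. Summed FPKM of 10 fibroblast markers was 7255 in MEF and was uneven among the cultures on feeders, with 1063 in MASC.1, 954 in SSC.3, 417 in ESC.1, 401 in SSC.1 and 465 in HSC.2 against 2.57 to 148 in all other cultures. No pair of samples held identical values.

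**Figure D1:**
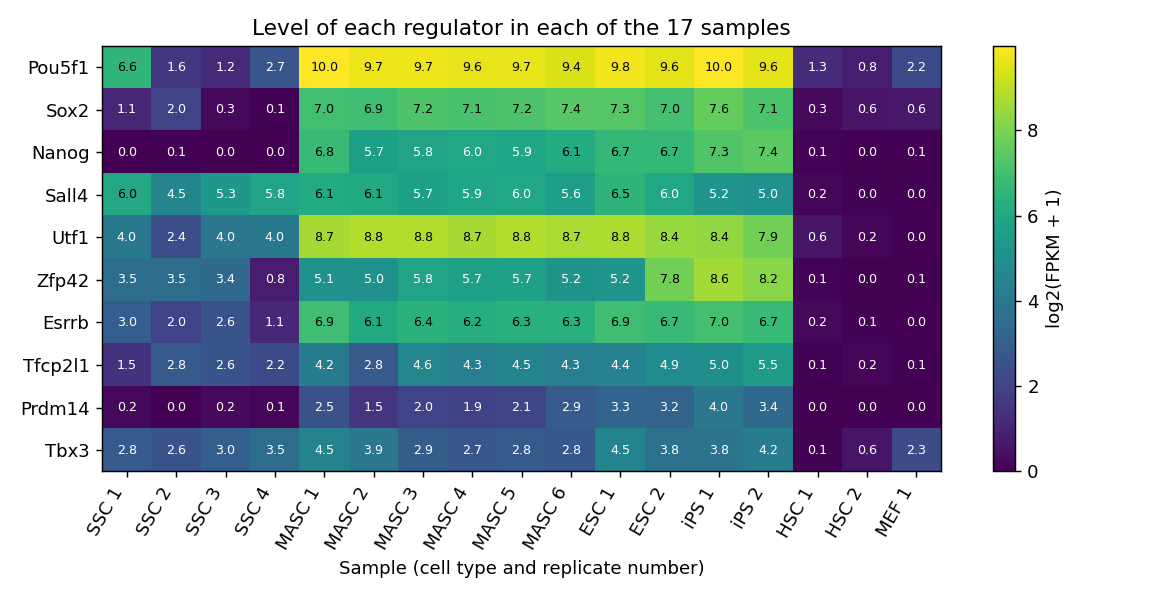
Level of the 10 regulators (rows) in the 17 samples (columns), as log2(FPKM + 1), printed in each cell and coloured from low (dark) to high (yellow). MASC, ESC and iPS columns are high in most rows, SSC columns are high for Sall4, with Pou5f1 high in SSC.1 alone, and the HSC and MEF columns are the lowest in most rows.

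In MASCs, Pou5f1 was the most abundant of the 10 transcripts, followed by Utf1 and Sox2, and the lines of these genes did not overlap with one another. Mean log2(FPKM + 1) was 9.69 ± 0.18 for Pou5f1, 8.75 ± 0.08 for Utf1 and 7.14 ± 0.17 for Sox2 (SD, n = 6). Prdm14 was the lowest, with 2.14 ± 0.46. ESCs had the same leading 3 genes, with 9.67 ± 0.15, 8.59 ± 0.23 and 7.17 ± 0.25 (SD, n = 2). In SSCs the order was different: Sall4 led with 5.42 ± 0.66 (SD, n = 4) and did not overlap with the next gene, Utf1, with 3.61 ± 0.82. The given transcripts of Prdm14 and Nanog were the lowest, at 0.15 ± 0.11 and 0.02 ± 0.03, but with all its transcripts summed Nanog was at 2.14 and above Sox2 (0.86 ± 0.90) and Prdm14.

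The first comparison asks which of these regulators differ between the SSC lines and the MASC lines, whose parent SSC lines are not known. Of the 10 genes, 8 were higher in MASCs (limma, Benjamini-Hochberg adjusted p under 0.05 over all transcripts) and none was lower, where 11.4% of all transcripts were higher and 30.9% differed in either direction. Sall4 and Tbx3 were not called. The median difference of the 10 genes was 3.41 on the log2(FPKM + 1) scale, against -0.005 over all transcripts. The values of 7 genes did not overlap between the groups, all higher in MASCs, where this held for 9.91% of all transcripts.

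Pou5f1 (NM_013633, mm9 chromosome 17, 35642977 to 35647722, plus strand) encodes the POU factor Oct4, which is required for pluripotency. Its FPKM was 693 (lowest), 828 (median) and 1007 (highest) in the 6 MASC lines. In the SSC lines it was 94.5 in SSC.1, 2.10 in SSC.2, 1.37 in SSC.3 and 5.42 in SSC.4. All MASC lines lay above all SSC lines, but SSC.1 stood far above the other SSC lines. The difference was 6.66 ± 0.89 (SE) on the log2(FPKM + 1) scale, a fold of 101 (limma, adjusted p = 0.00036), and 7.84 ± 0.27 without SSC.1. The exact two-sided permutation test gave p = 0.00476, the smallest p that 6 against 4 lines allow. The same smallest p was reached by Sox2, Nanog, Utf1, Zfp42, Esrrb and Prdm14, while the exact permutation p was 0.00952 for Tfcp2l1, 0.119 for Sall4 and 0.505 for Tbx3.

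Sox2 (NM_011443, chromosome 3, 34548927 to 34551382, plus strand) encodes the partner of Oct4 at composite sites. Its FPKM was 120, 142 and 168 (lowest, median and highest) in the MASC lines, and 1.13, 3.13, 0.196 and 0.0455 in SSC.1 to SSC.4. No SSC line reached the MASC range. The difference was 6.27 ± 0.34 (adjusted p = 1.66e-06, limma), a fold of 77.4 on this scale.

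Nanog (NM_028016, chromosome 6, 122657583 to 122664651, plus strand) encodes a homeodomain factor that stabilises self-renewal. Its FPKM was 49.3, 60.8 and 108 (lowest, median and highest) in the MASC lines. In all 4 SSC lines this transcript was at most 0.0435, that is close to 0, so no fold is given, while the sum over the 4 Nanog transcripts was 2.35 to 4.07 FPKM in SSC lines and 82.5 to 169 in MASC lines. The difference was 6.03 ± 0.18 (limma, adjusted p = 4.19e-08), a value in which the SSC side is set by the pseudocount, and 4.61 ± 0.20 for the summed transcripts (adjusted p = 3.91e-07).

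SSC.1 thus held Pou5f1 at a level that neither Sox2 nor Nanog shared. At an FPKM of 94.5 for Pou5f1, its Sox2 was at 1.13 and its Nanog, summed over all transcripts, at 3.56, within the range of the SSC lines. Among target genes of the network, Tcl1, a co-activator of the kinase Akt, was at 17.2 FPKM in SSC.1 and at 0.36 to 3.83 in the other SSC lines, and Dppa3, a maternal-effect and germ cell gene, was at 9.46 against 0.0767 to 1.05, both named after their values were seen. Fgf4 and Tdgf1 were at or below 0.663 in all 4 SSC lines. They were named as close matches of Sox2 and Nanog over these same samples, so their low level in SSC.1 follows from that choice. Fibroblast marker FPKM in SSC.1 was 401, below that of SSC.3, and Pou5f1 in MEF was 3.74. The cause of the Pou5f1 level in SSC.1 was not tested.

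Utf1 (NM_009482, chromosome 7, 147129755 to 147131011, plus strand) encodes a chromatin-associated factor that restrains bivalent genes. Its FPKM was 401, 435 and 458 (lowest, median and highest) in the MASC lines, the smallest SD of the 10 genes on the log2(FPKM + 1) scale, and 15.5, 4.22, 14.6 and 15.5 in SSC.1 to SSC.4. Both groups expressed the gene, and they did not overlap. The difference was 5.14 ± 0.30, a fold of 35.3 (limma, adjusted p = 2.49e-06).

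Esrrb (NM_011934, chromosome 12, 87762594 to 87862578, plus strand) encodes an orphan nuclear receptor that can stand in for Nanog. Its FPKM was 65.5, 79.3 and 119 (lowest, median and highest) in the MASC lines, and 6.82, 3.04, 4.88 and 1.22 in SSC.1 to SSC.4. The groups did not overlap, with a difference of 4.20 ± 0.32 (limma, adjusted p = 1.08e-05).

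Zfp42 (NM_009556, chromosome 8, 44380421 to 44392363, minus strand) encodes Rex1, a zinc-finger protein used as a marker of naive cells. Its FPKM was 31.9, 42.6 and 56.2 (lowest, median and highest) in the MASC lines. It was 10.6, 10.5 and 9.63 in SSC.1 to SSC.3 and 0.695 in SSC.4. All MASC lines were above all SSC lines, and SSC.4 was well below the others. The difference was 2.61 ± 0.65 (limma, adjusted p = 0.0124) and 1.93 ± 0.49 without SSC.4. With strain as a block it was 2.80 and not called (adjusted p = 0.067).

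Tfcp2l1 (NM_023755, chromosome 1, 120524522 to 120581745, plus strand) encodes a grainyhead-family factor downstream of leukaemia inhibitory factor. Its FPKM was 17.8 to 23.6 in 5 MASC lines but 5.93 in MASC.2, within the SSC range of 1.78 to 6.08. The groups thus overlapped by this 1 line. The difference was 1.84 ± 0.38 (limma, adjusted p = 0.005) and 1.57 ± 0.55 without the 4 lines with the highest fibroblast marker FPKM (MASC.1, SSC.1, SSC.3 and ESC.1), where it was not called (adjusted p = 0.0985).

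Prdm14 (NM_001081209, chromosome 1, 13103509 to 13117244, minus strand) encodes a regulator that silences DNA methyltransferases and is needed in primordial germ cells. Its FPKM was 1.84, 3.13 and 6.22 (lowest, median and highest) in the MASC lines and at most 0.185 in the SSC lines, with SSC.2 listed at 0. It was the least abundant of the regulators in MASCs, yet the groups did not overlap. The difference was 1.99 ± 0.22 (limma, adjusted p = 0.000112).

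Sall4 (NM_175303, chromosome 2, 168573832 to 168592701, minus strand) encodes a zinc-finger factor of both pluripotent cells and undifferentiated spermatogonia. Its FPKM was 47.4, 60.5 and 68.0 (lowest, median and highest) in the MASC lines, and 63.1, 22.0, 39.1 and 55.6 in SSC.1 to SSC.4. SSC.1 and SSC.4 lay inside the MASC range. The difference of 0.47 ± 0.27 was not called (limma, adjusted p = 0.24), nor was that of either other transcript of the gene.

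Tbx3 (NM_011535, chromosome 5, 120121242 to 120134733, plus strand) encodes a T-box factor of self-renewal and early lineage choice. Its FPKM was 21.0 in MASC.1 and 14.4 in MASC.2, but 5.32 to 6.62 in the other 4 MASC lines. The SSC lines were at 6.01, 4.92, 7.17 and 10.5. The pooled difference of 0.28 ± 0.40 was not called (limma, adjusted p = 0.679), and it was -0.02 ± 0.44 without the 4 lines with the highest fibroblast marker FPKM and -0.05 ± 0.46 with both Tbx3 transcripts summed.

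Genetic background was uneven across the groups, so the differences were also taken within strain. Within the Oct4-GFP lines (2 MASC, 2 SSC) the 8 called genes were higher in MASCs by 1.36 (Tfcp2l1) to 6.18 (Nanog) on the log2(FPKM + 1) scale, and within the 129mix lines (2 MASC, 1 SSC) by 1.83 (Prdm14) to 7.11 (Sox2). Sall4 differed by 0.82 and -0.04. Tbx3 differed by 1.51 within Oct4-GFP and by -0.73 within 129mix, so the direction was opposite, but the test of this difference missed the threshold (limma interaction over 7 lines, 2.24 ± 0.38, adjusted p = 0.216). For Zfp42 the within-strain differences were 1.55 and 5.004 and the interaction was called (-3.46 ± 0.10, adjusted p = 0.0077), where 128 of 32661 transcripts were. The 129mix arm has SSC.4 as its only SSC line.

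**Figure D2:**
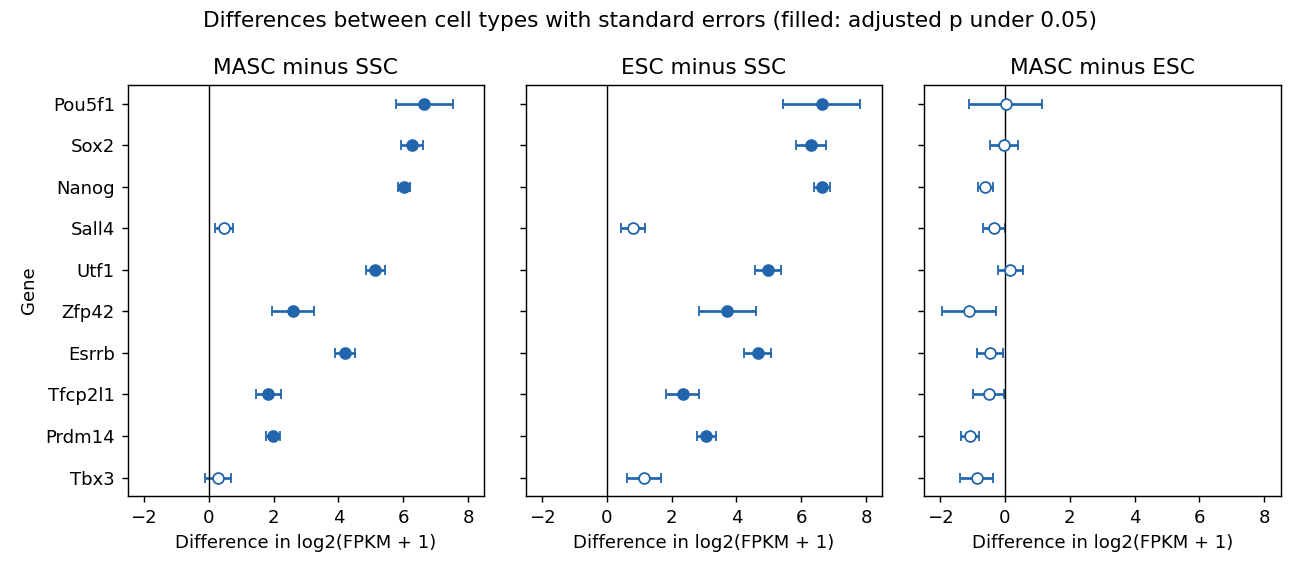
Differences of the 10 regulators (rows) between cell types in log2(FPKM + 1), with standard errors from limma over the 12 SSC, MASC and ESC lines; filled points passed an adjusted p of 0.05. The left and middle panels (MASC minus SSC and ESC minus SSC) each have 8 filled points, and the right panel (MASC minus ESC) has none.

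The comparison of ESCs with SSCs used the same 4 SSC lines, so it is not independent of the first. The same 8 genes were called and all were higher in ESCs, where 7.67% of all transcripts were higher and 21.4% differed. Over all transcripts 2505 were higher and 4495 lower, and after quantile normalization 2967 and 3384. Differences ranged from 2.34 ± 0.51 for Tfcp2l1 to 6.64 ± 0.24 for Nanog, both called. Sall4 (0.81 ± 0.36, adjusted p = 0.156) and Tbx3 (1.15 ± 0.53, adjusted p = 0.168, limma) were not. For Zfp42 the value rested on the ESC line chosen: its FPKM was 36.2 in ESC.1 and 228 in ESC.2, and the difference was 3.72 ± 0.87 with both, 5.03 ± 0.95 without ESC.1 and 2.41 ± 0.95 without ESC.2, where it was not called (limma, adjusted p = 0.156). Tfcp2l1 was also not called without ESC.2 (2.10 ± 0.69, adjusted p = 0.0893).

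Between MASCs and ESCs, none of the 10 genes was called by limma, where 0.0306% of all transcripts were. This background of 10 transcripts became 108 without ESC.1 and 85 without ESC.2, with none of the 10 genes called in either case. At an unadjusted p under 0.05, 2 genes differed, and both were lower in MASCs. Prdm14 was at 8.58 and 8.02 FPKM in ESC.1 and ESC.2, above all 6 MASC lines, with a difference of -1.07 ± 0.28 (limma, adjusted p = 1). Nanog was at 99.5 and 99.4 in the ESC lines, above 5 of 6 MASC lines, and differed by -0.61 ± 0.23 (limma, adjusted p = 1). The differences of Pou5f1 (0.02 ± 1.12), Sox2 (-0.03 ± 0.43) and Utf1 (0.16 ± 0.38) were the smallest, and their standard errors leave room for a change of either sign. These standard errors rest on a spread shared with the SSC lines. For Pou5f1 the SD was 2.44 in SSC lines but 0.18 in MASC and 0.15 in ESC lines. Its FPKM was 693 to 1007 in MASC lines and 755 to 874 in ESC lines. With 2 ESC lines of different strain, small differences could not be detected.

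The iPS cell lines, made from fibroblasts with the Oct4, Sox2, Klf4 and c-Myc cassette, extend the comparison to another route to pluripotency. Against ESCs, none of the 10 genes was called in a fit over all 17 samples (limma), where 0.309% of all transcripts were, and 2 passed an unadjusted p under 0.05. Nanog was at 153 and 174 FPKM in iPS.1 and iPS.2, above both ESC lines and all MASC lines (0.71 ± 0.26, adjusted p = 0.451). Sall4 was at 35.8 and 31.6, below all MASC and ESC lines (-1.12 ± 0.38, adjusted p = 0.387, limma). Utf1 was also lower, at 331 and 231 FPKM, below every MASC and ESC line, with a difference from ESCs of -0.47 ± 0.45 that was not called.

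Zfp42 spread the most among pluripotent lines. It was at 386 and 292 FPKM in the iPS lines and at 228 in ESC.2, but between 31.9 and 56.2 in ESC.1 and all 6 MASC lines. The 129mix strain was on both sides: MASC.3 and MASC.4 were at 56.2 and 50.7, and ESC.2 and the iPS lines, of the same strain label, were far higher. Its iPS minus ESC difference was 1.87 ± 0.92 (limma, adjusted p = 0.68), 0.56 ± 0.94 without ESC.1 and 3.18 ± 0.94 without ESC.2.

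Against MEF, 9 of 10 genes were higher in iPS cells (limma, 17-sample fit, in which the single MEF sample is assumed to vary like the other groups), where 11.4% of all transcripts were higher and 21.6% differed. Over all transcripts 3709 were higher and 3356 lower, and after median-of-ratios scaling 3193 and 4488. The given transcripts of Nanog, Sall4, Utf1, Zfp42, Esrrb and Tfcp2l1 were at 0.0405 FPKM or less in MEF and Prdm14 was listed at 0. In a fit over the iPS and MEF samples alone, 3 genes were called (Nanog, Sall4 and Esrrb). The exception in the fit over 17 samples was Tbx3, at 3.82 FPKM in MEF and 13.4 and 17.2 in the iPS lines (1.74 ± 0.70, adjusted p = 0.104). Pou5f1 had a low level in MEF too, 3.74 FPKM, above SSC.2 and SSC.3.

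HSCs are adult stem cells of another tissue. Against them, 6 of 10 genes were higher in SSCs (limma, 17-sample fit), where 20.7% of all transcripts were higher and 33.4% differed. Over all transcripts 6747 were higher and 4159 lower, and 5388 and 5485 after quantile normalization. Sall4 differed most, by 5.30 ± 0.33, with an FPKM of 22.0 to 63.1 in SSC lines and 0.142 and 0.0287 in HSC.1 and HSC.2. Utf1 (3.25 ± 0.39), Zfp42 (2.77 ± 0.79), Tbx3 (2.67 ± 0.49), Tfcp2l1 (2.16 ± 0.48) and Esrrb (2.03 ± 0.39) were also higher. In a fit over the SSC and HSC samples alone, 4 genes were called, without Zfp42 (adjusted p = 0.133) and Esrrb (adjusted p = 0.0766). Pou5f1 (1.95 ± 1.09, adjusted p = 0.202), Sox2 (0.43 ± 0.43), Nanog (-0.03 ± 0.22) and Prdm14 (0.13 ± 0.29) were not called. Pou5f1 differed by 0.77 ± 0.34 when SSC.1 was left out, and Zfp42 was no longer called without HSC.1 (adjusted p = 0.077) or without HSC.2 (adjusted p = 0.0865). HSC.2 held fibroblast markers at 465 FPKM and HSC.1 at 2.57, and the transcript given for each of the 10 genes was at 1.49 FPKM or less in both. Summed over all its transcripts, Nanog was at 4.30 FPKM in HSC.1 and Tbx3 at 1.77 in HSC.2. In all these bulk cultures, fewer cells with a transcript and less transcript per cell cannot be told apart.

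Nanog and Pou5f1 are each listed with transcripts from 2 start sites, and the share of FPKM assigned to these transcripts differed between cell types or lines. Cufflinks assigns reads to transcripts by a model, and reads of shared exons carry little information on the start, so these shares are estimates. For Nanog, the transcript NM_001289831 starts 76 bases upstream of the main start, at 122657507. It is listed at 1995 bases against 2214 for NM_028016, so the transcripts differ in more than the start. In the 10 MASC, ESC and iPS lines, it made up 9.76% to 32.4% of Nanog FPKM (median 12.8%). In the SSC, HSC and MEF samples, where the summed Nanog FPKM was 0.794 to 4.30, it made up 73.3% to 99.95%.

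In absolute terms the upstream transcript was also less abundant in those samples. Its FPKM was 3.33, 3.66, 3.91 and 1.72 in SSC.1 to SSC.4, 3.87 and 0.791 in the HSC samples and 1.09 in MEF, against 8.73 to 36.7 in the 10 pluripotent lines. The MASC minus SSC difference was 2.06 ± 0.37 for this transcript and 6.03 ± 0.18 for the main one (both called, limma). MASC.2 had the highest share among pluripotent lines, and there the upstream transcript was at 36.7 and the main one at 49.3.

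For Pou5f1, the shorter transcript NM_001252452 starts at 35645752, inside the first intron of the longer one. Its FPKM was 10.9 in ESC.1, 8.02 in MASC.1 and 8.52 in MASC.2, the 3 pluripotent lines of the Oct4-GFP strain, and 102 to 237 in the 7 lines of other strains. As a share of Pou5f1 FPKM this was 0.79% to 1.23% against 11.3% to 19.2%, with no overlap, while the longer transcript was at 849 to 1007 and at 693 to 998 in the same lines. SSC.1, also of the Oct4-GFP strain, had a share of 12.2% at an FPKM of 13.1. SSC.2, of the same strain, had a share of 0.0265%, at a summed Pou5f1 FPKM of only 2.10. The Sall4 transcript NM_201396 was split the same way, at 0.318 to 0.765 FPKM in the 3 Oct4-GFP lines and 2.65 to 14.5 in the other 7. Strain and any other property that these 3 lines share cannot be told apart here, and no test was made, since the split was noticed in the values.

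**Figure D3:**
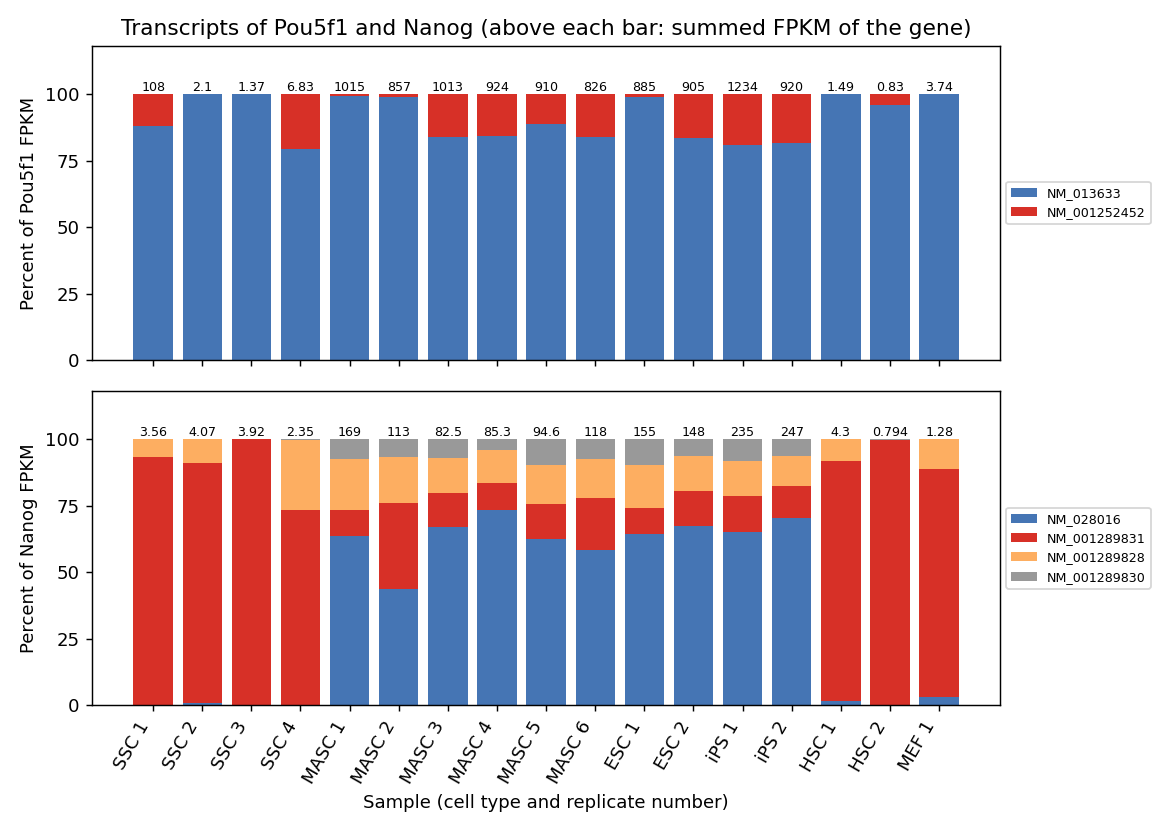
Share of each RefSeq transcript in the summed FPKM of Pou5f1 (top) and Nanog (bottom) per sample, in percent, with the summed FPKM above each bar. The shorter Pou5f1 transcript (red) is nearly missing from MASC 1, MASC 2 and ESC 1, and the upstream Nanog transcript (red) fills most of the bar in SSC, HSC and MEF samples.

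Across the 17 samples the 10 genes rose and fell together: Pearson's r of log2(FPKM + 1) was positive for all 45 pairs, with a median of 0.87 and a range from 0.55 (Sall4 and Prdm14) to 0.98 (Sox2 and Nanog). Samples of a cell type share their culture, so these r are a description of the contrast between cell types. Among the 10 MASC, ESC and iPS lines alone, the median was 0.20, and 30 of 45 pairs were positive. Nanog and Prdm14 (0.88), Nanog and Esrrb (0.85) and Esrrb and Prdm14 (0.82) varied together among these lines. Utf1 went against Nanog (-0.84) and Zfp42 (-0.82), and Sall4 against Zfp42 (-0.71).

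The genes whose levels followed each regulator most closely were looked up among 1 transcript per symbol with a mean FPKM of at least 1. Zfp42 had Triml2 (r = 0.989), Triml1 (r = 0.954) and Rpl4 (r = 0.951) as its closest matches over 17 samples. Triml2 and Triml1 are tripartite-motif genes and neighbours of Zfp42 on chromosome 8, while Rpl4 lies on chromosome 9. By Spearman's rho, Rpl4 (0.958) stood above Triml1 (0.951). Triml1 (44215161 to 44226840), Triml2 (44268476 to 44279238) and Zfp42 are the only 3 gene symbols in the 177 kb from the first to the last. Triml2 was at 97.7 and 89.1 FPKM in the iPS lines, 51.5 in ESC.2, 13.0 in ESC.1, 10.9996 to 18.5 in the MASC lines and 0.392 to 5.11 in the SSC lines, and it was listed at 0 in HSC and MEF samples. Triml1 was at 52.6 and 39.8 FPKM in the iPS lines, 17.9 in ESC.2, 10.7 in ESC.1, 4.94 to 10.0 in the MASC lines and 0.115 to 1.04 in the SSC lines. Both neighbours were highest in the iPS lines and next in ESC.2, but for Triml1 ESC.2 lay nearer to ESC.1 than to the iPS lines. Pearson's r with Zfp42 was 0.988 (Triml2), 0.931 (Triml1) and 0.835 (Rpl4) over the 10 MASC, ESC and iPS lines.

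**Figure D4:**
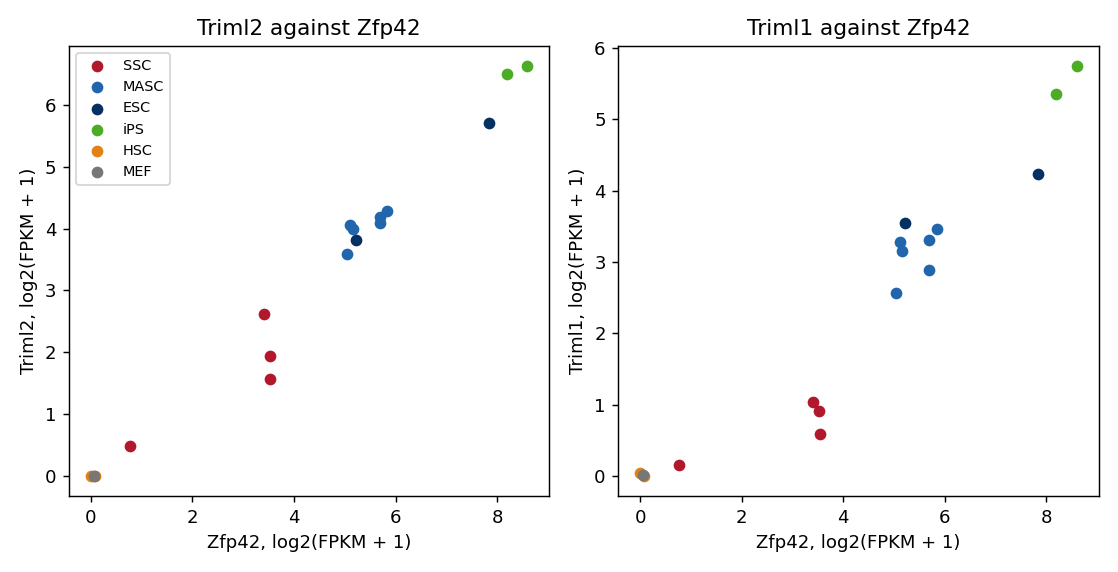
Level of Triml2 (left) and Triml1 (right) against Zfp42, as log2(FPKM + 1), 1 point per sample, coloured by cell type. The iPS lines lie at the top right with ESC.2 below them, the MASC lines and ESC.1 form a group in the middle, and the SSC, HSC and MEF samples lie below.

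Sox2 was followed most closely by Eras (r = 0.993), Pipox (0.991) and Fgf4 (0.990), of which Fgf4 encodes a growth factor that pluripotent cells secrete. Nanog was followed by Gm7325 (0.997), Tdgf1 (0.992), which encodes a Nodal co-receptor, and Pipox (0.991). Pou5f1 was followed by Tdh (0.981), which encodes threonine dehydrogenase, Gm5712 (0.979) and Ap1m2 (0.975). Utf1 was followed by Fbxo15 (0.988), Crb3 (0.978) and Cbx7 (0.974), and Esrrb by Pigp (0.994), Dppa5a (0.992) and Gm6083 (0.986).

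Sall4 was followed by Rbmxl2 (0.988), Pak4 (0.986) and Hic2 (0.981), and Tfcp2l1 by Cdyl2 (0.979), Xrcc5 (0.971) and Slc25a13 (0.967). Prdm14 was followed by Lrrc34 (0.973), Ildr1 (0.970) and Ano9 (0.968). Tbx3 had the weakest matches, Tpd52l1 (0.919), Igfbp2 (0.914) and 2410018L13Rik (0.904). These r are over 17 samples of 6 cell types and describe the same steps between cell types. Over the 10 MASC, ESC and iPS lines alone, r of the named matches ran from -0.26 (Pou5f1 and Ap1m2) to 0.988 (Zfp42 and Triml2). It was -0.07 for Pou5f1 and Tdh.

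Other parts of the pluripotency network were read from gene lists, which were chosen with earlier results of these data known. Among all 32661 transcripts, 3739 (11.4%) were higher and 6360 lower in MASCs than in SSCs. Of 16 partners of the core factors, 11 were higher and 1 was lower in MASCs than in SSCs, with a median difference of 2.73 against -0.005 over all transcripts. Nr0b1, a nuclear receptor that binds Oct4, differed most, with 33.6 to 96.4 FPKM in MASC lines and at most 0.277 in SSC lines (5.88 ± 0.25). Tet1, which oxidises methylated cytosine (4.32 ± 0.42), Klf5 (4.30 ± 0.29), Dppa2 (4.19 ± 0.31) and Foxd3 (3.50 ± 0.26) were also higher. The 1 lower gene was Stat3, the factor that relays leukaemia inhibitory factor (-1.41 ± 0.18), chosen after its value was seen. Klf4 and Lin28a, named in the same way, were not called, and Lin28a had a median FPKM of 92.8 in SSC lines and 106 in MASC lines.

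Of 14 target genes of Pou5f1, Sox2 and Nanog, 12 were higher and 1, Trim71 (-0.92 ± 0.17), was lower in MASCs, with a median difference of 4.13. The share of all transcripts that were higher was 11.4%. Tdgf1 differed most, by 8.15 ± 0.18, from at most 0.663 FPKM in SSC lines to 289 to 454 in MASC lines. L1td1, an RNA-binding protein (7.41 ± 0.29), Dppa5a (6.45 ± 0.50), Fgf4 (5.98 ± 0.13) and the Nodal antagonists Lefty1 (5.21 ± 0.45) and Lefty2 (4.39 ± 0.32) came next. Dppa5a was also above 1 FPKM in all SSC lines, at 5.36 to 41.8, and reached 1215 to 2840 in MASC lines.

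Of 8 genes of the formative and primed states, which follow the naive state in the embryo, 4 were higher and 1 was lower in MASCs. Their median difference was 1.16, against -0.005 over all transcripts, of which 11.4% were higher and 30.9% differed in either direction. The DNA methyltransferase gene Dnmt3b rose by 4.02 ± 0.35, Zic2 by 2.86 ± 0.51, Otx2 by 2.39 ± 0.36 and T (Brachyury) by 1.43 ± 0.32. Sox3 was the lower one, a SoxB1 relative of Sox2 and a gene of undifferentiated spermatogonia. Its FPKM was 20.7 to 175 in SSC lines and 1.4996 to 8.09 in MASC lines, a difference of -4.54 ± 0.60, so that the SSC lines were high in Sox3 where the MASC lines were high in Sox2.

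The closest relatives of the 10 genes went in both directions. Of 16 relatives, Sox3 among them, 4 were higher and 7 lower in MASCs, and the median difference was 0.01. Of all 32661 transcripts, 3739 were higher and 6360 lower. Sox15 (3.52 ± 0.40), Sox1 (1.48 ± 0.31) and Sall1 (1.42 ± 0.42) were higher. Tfcp2, the relative of Tfcp2l1, was lower (-1.61 ± 0.13), with 8.29 to 13.9 FPKM in SSC lines and 2.65 to 3.43 in MASC lines, and Sall2 was lower by -1.48 ± 0.27. Pou5f2 and Esrrg were among those called lower but did not exceed 0.196 FPKM in any SSC or MASC line. In MASCs against ESCs and in iPS cells against ESCs, no gene of the 4 lists was called.

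**Figure D5:**
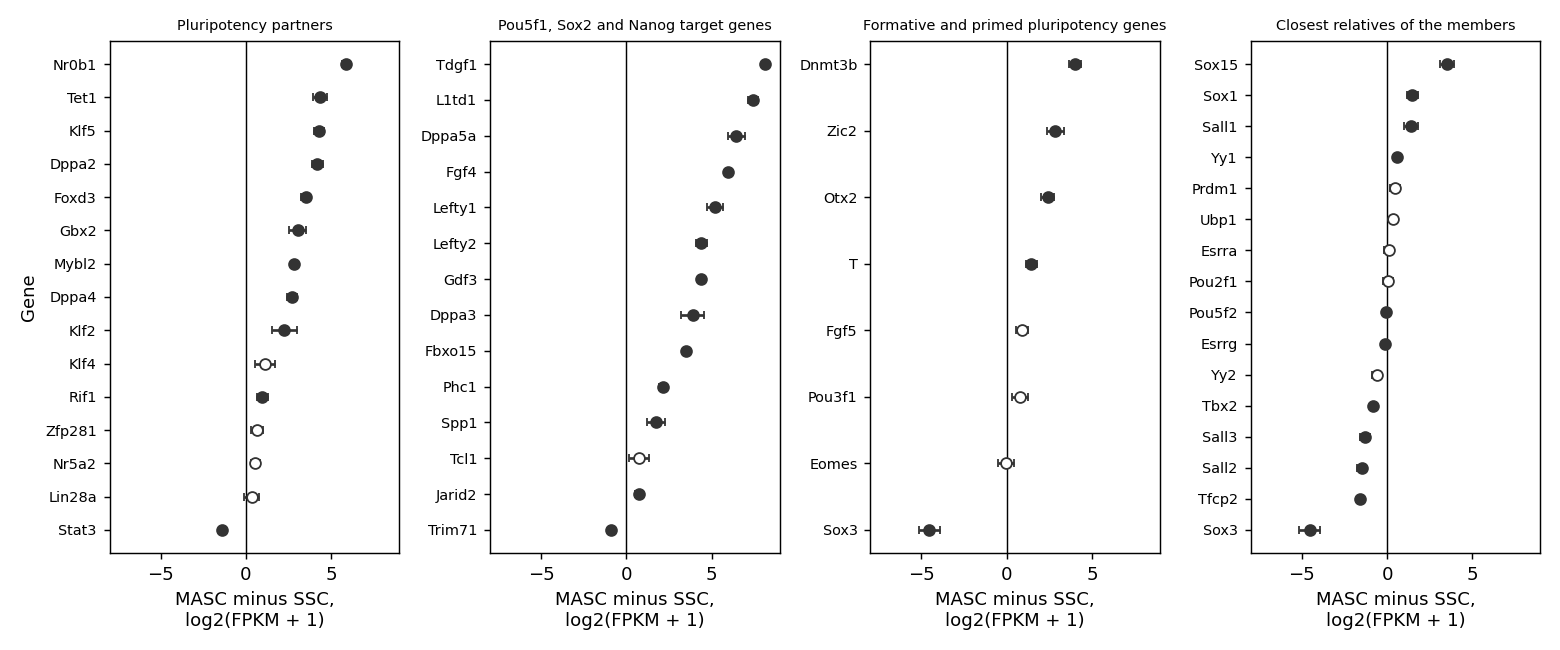
MASC minus SSC difference in log2(FPKM + 1) with its standard error for genes of the 4 lists, sorted within a list; filled points passed an adjusted p of 0.05. Partners and targets lie mostly to the right of 0, Sox3 lies far to the left, and the relatives of the 10 genes lie on both sides.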

How the data were processed

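RNA of 17 samples was sequenced (TruSeq RNA libraries, Illumina HiSeq). Per the labels and the methods of the study, the authors aligned reads to mm9 with TopHat2 2.0.11, left out duplicate and multiply mapped reads, and computed FPKM per RefSeq transcript with Cufflinks (version not given in the sources used here), with upper-quartile and GC normalisation. The deposited signal column, read coverage per base, was used only as a measure of depth. Of 33262 entries per file, 601 were left out because they were further loci of a transcript. The deposited files hold no counts, so log2(FPKM + 1) was tested with limma 3.58.1 (R 4.3.3), with Benjamini-Hochberg adjustment over 32661 transcripts. SSC, MASC and ESC comparisons were fitted over 12 lines, and the others over all 17 samples. No filter on low values was set. Exact permutation tests went through all 210 groupings of the MASC and SSC lines. The script was tested on simulated data. All genes of this report and the lists were chosen with earlier results of these data known. Up to 6 called genes per list with the largest MASC minus SSC difference were named, and for each of the 10 genes the 3 most correlated ones. Alternatives covered the pseudocount (0.1), a filter, scaling, variance model, summed transcripts, call rule, blocks, samples in the fit and leaving out each replicate. Fibroblast-marker and within-strain alternatives were chosen after seeing the data. Replicate numbers were not shown to pair the samples. A single result of the gene lists is not reported here.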

Additional observations from a re-analysis of the deposited data

Results flagged for a closer look

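In 4 of 20 tests of a gene in the SSC or MASC lines, 1 line stood apart (Dixon's test, which chance passes in about 1 of 20 groups). The measure was the gap of that line to the nearest one, as a share of the group's range on the log2(FPKM + 1) scale. Zfp42 was low in SSC.4 (0.695 FPKM, gap 0.956), and Utf1 was low in SSC.2 (4.22 FPKM, gap 0.952). Tfcp2l1 was low in MASC.2 (5.93 FPKM, gap 0.787). For Nanog in SSC.2 the gap was 1, but the level was 0.0435 FPKM and the other SSC lines were close to 0. The Pou5f1 level of SSC.1 had a gap of 0.73 on this scale, under the critical value of 0.829 for 4 lines, and did not pass. Gaps on the FPKM scale were not tested.

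The MASC minus SSC difference of Zfp42 differed between the Oct4-GFP and the 129mix lines, by -3.46 on the log2(FPKM + 1) scale (limma interaction, adjusted p = 0.0077). SSC.4, the line with the low Zfp42 level, is the only 129mix SSC line, so strain and line cannot be told apart.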

How the results depend on the processing

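Of 1010 alternative values of the 10 genes' differences, 979 were counted as the same, 25 were no longer called and 6 within-strain values moved. Tested values counted as the same if they kept direction and side of the threshold, or were uncalled in both. Within-strain values had no test and counted as the same if within 2 standard errors of the main difference. Sall4 within 129mix (-0.04, against 0.47 for all lines) was thus counted as the same. In ESCs against SSCs, 5 genes were called with the replicate number as a block, against 8. In iPS cells against MEF, 3 were called in a fit over these 3 samples alone, against 9. The cause of the first was not tested, and the second fit has fewer samples. With the replicate block, 6 genes were called in MASCs against SSCs, 4 in SSCs against HSCs and none in MASCs or iPS cells against ESCs. No such block could be set for MEF, which has 1 sample. In a fit over the SSC and HSC samples alone, 4 were called, against 6. Over all transcripts the block left 5945 of 10099 calls in number for MASCs against SSCs and 3377 of 7000 for ESCs against SSCs. Deviations of SSC and MASC lines with the same number had r from -0.225 to 0.185 (4 pairs), and those of ESC and SSC lines r of 0.208 and 0.262 (2 pairs, mean -0.0783 for other pairs). With too few ESC pairs to decide and no pairing in the labels, the numbers were not taken to pair the samples. Leaving out each replicate gave 8 called genes in every case in MASCs against SSCs, 6 to 8 in ESCs against SSCs and 5 to 6 in SSCs against HSCs. Over all transcripts, calls went from 10 to 108 and 85 for MASCs against ESCs and from 7000 to 4616 and 4149 for ESCs against SSCs without ESC.1 or ESC.2, from 101 to 176 for iPS cells against ESCs and from 7065 to 4378 for iPS cells against MEF without iPS.1. Under the other alternatives they were 2 to 48 for MASCs against ESCs and 14 to 142 for iPS cells against ESCs. Without the 4 lines high in fibroblast markers, 7 were called in MASCs against SSCs. With a log2 difference of at least 2 also required, 6 were called, since Prdm14 (1.99) and Tfcp2l1 (1.84) fell short. Of the 30 most correlated genes, 1 was also among the closest matches over the 10 MASC, ESC and iPS lines and 1 by Spearman's rho. With FPKM summed per gene symbol, 11 of 60 levels moved by more than the spread. Depth limits the levels below 1 FPKM, and that of the given Nanog transcript also depends on how reads were assigned among the Nanog transcripts. The given transcripts of Nanog and Prdm14 in SSCs thus could not be ordered. Summed over its transcripts, Nanog (2.35 to 4.07 FPKM) lay above Prdm14 (at most 0.185) in the SSC lines.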
